A study of Mus musculus with 6 samples.

Results

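Signals of the phagocyte oxidase genes Cybb, Cyba, Ncf1, Ncf4 and Rac2 and of the related oxidase gene Nox4 were compared between mouse dendritic cells of bone marrow origin and cells of follicular stroma. The 6 genes were taken by name, with every probe set that the platform annotation gives to 1 of them alone, which made 12 probe sets out of 45037 that are not controls, and 6 genes out of 18193 named. Biotin-labelled total RNA was hybridised to 1 expression array per sample. BMDC, dendritic cells derived from bone marrow, were measured on 2 arrays. FDC, follicular dendritic cells cultured in vitro, were likewise measured on 2. There was 1 array of FL-Y, an FDC-like line transformed with SV40, and 1 of FL-Y activated through an antibody against the lymphotoxin beta receptor. The labels give no strain, age, culture time or dose, and leave unsaid whether a pair of arrays stems from different cultures or mice. The p-values therefore measure the spread of these samples and no more, and it may be technical.

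The phagocyte oxidase moves electrons from NADPH across a membrane to oxygen and so makes superoxide, which phagocytes use to kill microbes. Its catalytic subunit (Cybb) sits in the membrane in a complex with a smaller subunit (Cyba), and the enzyme stays silent until cytosolic subunits (among them Ncf1 and Ncf4) and a Rac GTPase join it. Nox4 encodes another catalytic subunit of the same family, which also pairs with the Cyba product, is known from kidney, vessel wall and fibroblasts, and works without the cytosolic subunits.

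Values are given as signal, the deposited linear intensity of a probe set, and differences as log2(signal + 14.2). The offset understates the differences of dim genes. As a mark of background level the 20th percentile of each array was used, which lay between 8.7 and 15.4, and is not a measured limit of detection. FDC and BMDC were compared with limma over 26999 probe sets with Benjamini-Hochberg adjustment, and the call threshold was an adjusted p of 0.05. All 12 probe sets of the 6 genes passed the filter on dim signals, which uses the mean of the BMDC and FDC arrays. Median signals ran from 47.9 to 84.4 over the 6 arrays, and the ratio of the 3' to the 5' control probe set of Gapdh, a sign of RNA integrity, from 0.808 to 0.904. The labelled cell types were read against marker genes. Of 13 myeloid markers all 13 were lower in FDC than in BMDC, beside 5.41% of all genes read by their brightest probe set. Of 9 fibroblast markers 6 were higher, beside 5.86% of all genes. Of 12 FDC markers 3 were lower and 0 higher (3 and 3 at an unadjusted p under 0.05, and 3 and 2 with a variance trend in limma). The 3 were Fcgr2b, Clu and Mfge8. With 1 array left out Fcgr2b (limma adjusted p = 0.00264 with all arrays) lay at -7.25 to -6.81. Clu (limma adjusted p = 0.0109) lay at -5.65 to -4.19. The fibroblast marker Pdgfrb was called at a limma adjusted p of 0.0348 and lay at 2.21 to 3.24 with 1 array left out. Its call was lost without BMDC array 2 or either FDC array. The FDC marker Mfge8 was called lower at a limma adjusted p of 0.0290 and lay at -2.34 to -2.01 with 1 array left out. Mfge8 lost its call whichever array was left out. Cr2, the complement receptor that defines FDC in follicles, had an adjusted p of 0.731 with limma.

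Of the 6 genes, 4 were lower in FDC than in BMDC (Cybb, Ncf1, Ncf4 and Rac2), 1 was higher (Nox4) and 1 was not called (Cyba). Over all genes tested by their brightest probe set, 5.41% were called lower and 5.86% higher. By probe set, 8 of the 12 were lower and 2 higher, against 4.1% and 4.84% of all probe sets tested. Both FDC arrays lay below both BMDC arrays for 10 of the 12 probe sets and above them for the 2 of Nox4. The genes were chosen with earlier results of these arrays known, so these counts describe the genes and are no independent evidence. RNA was taken from whole cultures, where fewer cells of a type and less RNA per cell cannot be told apart.

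**Figure D1:**
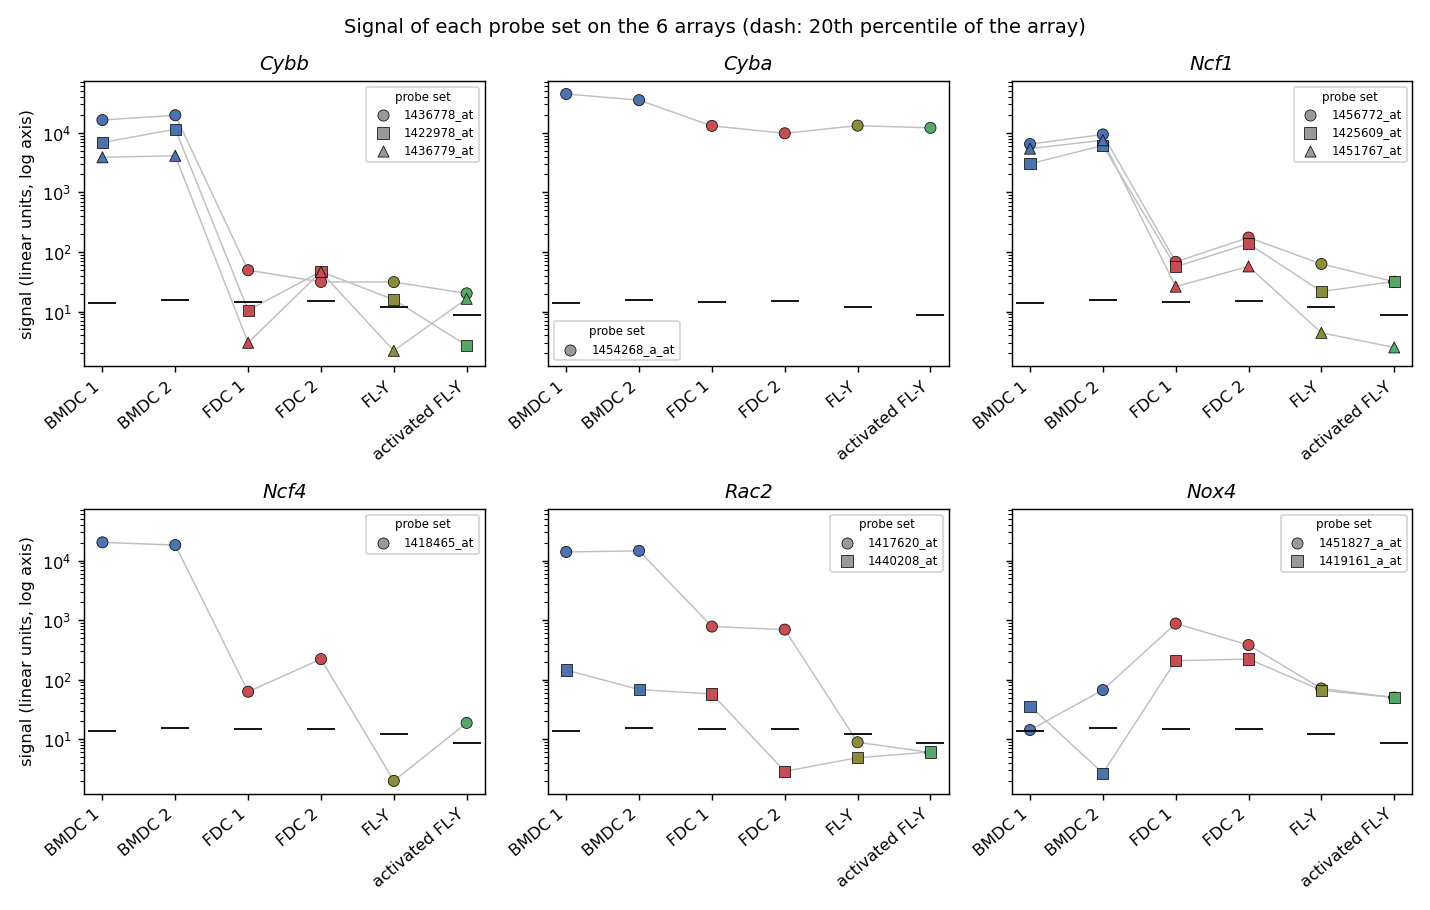
Signal of each of the 12 probe sets (linear units on a log axis) on the 6 arrays, 1 panel per gene; marker shapes stand for probe sets, colours for the 4 groups, grey lines join the values of a probe set, and dashes give the 20th percentile of each array. Cybb, Ncf1 and Ncf4 reach at most 221.1 outside BMDC, and Cyba is at 9809 or more on every array. With its brighter probe set Rac2 keeps an intermediate level on the FDC arrays alone. Nox4 is highest on the FDC arrays.

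Between FDC and BMDC the catalytic subunit of the phagocyte enzyme had the widest difference of the 6 genes. The brightest of 3 probe sets for Cybb gave signals of 16358 and 19710 in BMDC, 49.4 and 31.4 in FDC, 31.2 in FL-Y and 20.2 in activated FL-Y. The BMDC arrays stood apart from the other 4, which lay between 20.2 and 49.4, not far above the mark of background. Cybb was lower in FDC by a log2 difference of -8.38 ± 0.40 (SE, n = 2 arrays per group; limma adjusted p = 0.00264), the 10th lowest difference of the 26999 probe sets. The other probe sets of Cybb had differences of -7.84 ± 0.59 and -6.96 ± 0.66, with 1 of 2 FDC arrays under the 20th percentile for each, so the size of those differences depends on the offset. With the brightest probe set BMDC came first in level, then FDC, FL-Y and activated FL-Y. FL-Y lay from FDC at -0.25 ± 0.49 (limma adjusted p = 0.844), with the spread taken from the BMDC and FDC pairs. Activated FL-Y, with 1 array, was not tested.

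The cytosolic organiser Ncf1, which carries the other cytosolic subunits to the membrane, behaved in the same direction with a residue of signal in FDC. Its brightest probe set gave 6470 and 9390 in BMDC, 68.3 and 174.6 in FDC, 62.9 in FL-Y and 31.6 in activated FL-Y. FDC array 2 was above FDC array 1 with each of the 3 Ncf1 probe sets, and every BMDC signal was above every signal of the other groups with all 3. Ncf1 was lower in FDC by -5.97 ± 0.54 (adjusted p = 0.00481), and its other probe sets gave -5.38 ± 0.59 and -6.90 ± 0.47.

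Ncf4, the subunit that binds a phosphoinositide of phagosome membranes, had signals of 20162 and 18154 in BMDC, 62.8 and 221.1 in FDC, 2.0 in FL-Y and 18.8 in activated FL-Y. The FDC arrays held a little signal above the mark of background and the resting FL-Y array was under it. The difference between FDC and BMDC was -7.15 ± 0.61 (adjusted p = 0.00442). The mean FDC signal was 0.741% of the mean BMDC signal for Ncf4, 1.53% for Ncf1 and 0.224% for Cybb.

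Upstream sequence was read from RefSeq for the 4 of the 6 genes that its table of promoters lists (GRCm38.p6), to show the letters in front of the genes that differ together, Cybb and Ncf1, beside those of Cyba and Nox4. Each window holds the 250 bases before the annotated start, 5′ to 3′ on the strand of the gene. Capitals mark GAAA, 2 bases of any kind and GAAA again, on either strand (TTTC, 2 bases and TTTC when it lies on the opposite one), a form of the element that interferon regulatory factors, the IRF family, are known to bind. The motif was chosen after the windows had been read. The windows are chrX:9469325-9469574 on the minus strand for Cybb, chr5:134229626-134229875 on the minus strand for Ncf1, chr8:122432941-122433190 on the minus strand for Cyba and chr7:87246399-87246648 on the plus strand for Nox4.
Cybb: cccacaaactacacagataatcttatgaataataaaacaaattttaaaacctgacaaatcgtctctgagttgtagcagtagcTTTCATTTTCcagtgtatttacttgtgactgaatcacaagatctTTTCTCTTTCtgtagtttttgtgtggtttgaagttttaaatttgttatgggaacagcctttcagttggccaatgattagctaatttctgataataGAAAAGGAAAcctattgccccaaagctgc
Ncf1: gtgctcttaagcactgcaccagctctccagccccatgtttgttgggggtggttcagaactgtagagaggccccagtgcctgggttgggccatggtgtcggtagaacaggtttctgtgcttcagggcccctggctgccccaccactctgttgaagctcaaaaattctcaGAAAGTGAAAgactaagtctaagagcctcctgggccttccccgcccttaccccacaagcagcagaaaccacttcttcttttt
Cyba: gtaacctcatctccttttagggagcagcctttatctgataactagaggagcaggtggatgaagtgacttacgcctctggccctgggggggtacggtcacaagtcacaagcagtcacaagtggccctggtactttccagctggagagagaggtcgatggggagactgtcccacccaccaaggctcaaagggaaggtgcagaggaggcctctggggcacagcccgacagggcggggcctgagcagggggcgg
Nox4: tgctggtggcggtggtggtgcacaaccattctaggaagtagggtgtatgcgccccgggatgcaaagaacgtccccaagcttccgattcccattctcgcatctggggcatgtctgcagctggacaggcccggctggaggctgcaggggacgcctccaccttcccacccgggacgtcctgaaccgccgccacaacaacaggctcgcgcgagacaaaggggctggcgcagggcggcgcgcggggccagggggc

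The motif stood in 2 of the 4 windows, Cybb and Ncf1, and in 2.98% of the 32851 windows of this length in the table. Because it was chosen after these 4 windows had been read, its count in them is no test against that share. No window was listed for Ncf4 or Rac2. In Cybb the motif lay 29 bases before the start on the strand of the gene, and 124 and 168 bases before it on the opposite strand. In Ncf1 it lay 82 bases before the start on the strand of the gene. GAGGAA, a form of the sites for the factor encoded by Spi1, was also searched on both strands. It was in 0 of the 4 windows and in 23.3% of all windows. Other forms, among them the shorter GGAA, were not counted, so the count of GAGGAA does not show that the windows lack such sites. The letters GGAA stand within the Cybb match 29 bases before the start, GAAAAGGAAA. They are not particular to Cybb, since GGAA or its opposite-strand form TTCC also stands in the windows of Ncf1, Cyba and Nox4. The windows were 34.0% G and C for Cybb, 54.4% for Ncf1, 60.0% for Cyba and 67.2% for Nox4.

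Transcription factors of myeloid cells were read as a list. Of 10 tested, 4 were lower in FDC and 0 higher with limma, beside 5.41% and 5.86% of all genes (4 and 1 at an unadjusted p under 0.05; 4 and 1 with a variance trend), with a median of -1.43 beside -0.05 over all probe sets. Spi1, an ETS factor known to drive phagocyte oxidase genes, gave 8062 and 6459 in BMDC, 117.6 and 74.4 in FDC and 61.5 in FL-Y, a difference of -6.06 ± 0.42 (adjusted p = 0.00304). Irf5 was lower by -5.29 ± 0.75 (adjusted p = 0.0158), Ikzf1 by -3.69 ± 0.77 (adjusted p = 0.0467) and Irf8 by -3.02 ± 0.38 (adjusted p = 0.0114). Irf5 and Irf8 each lost the call without 1 array (adjusted p = 0.0538 without BMDC array 2 and 0.0550 without BMDC array 1), and Ikzf1 without either BMDC array (0.114 and 0.134). Irf1, an interferon-induced factor, differed the other way by 2.14 ± 0.52 without passing the test (adjusted p = 0.0705).

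Rac2 is the Rac GTPase of blood cells. With its brighter probe set it stood between these genes and Cyba in the difference between FDC and BMDC, but not in that between FL-Y and BMDC. This probe set gave 13929 and 14538 in BMDC, 779.4 and 691.8 in FDC, 8.9 in FL-Y and 6.0 in activated FL-Y. The FDC arrays were close to each other and well above background, while both FL-Y arrays were under the 20th percentile. Rac2 was lower in FDC than in BMDC by -4.25 ± 0.37 (adjusted p = 0.00444), with a 95% interval from -5.18 to -3.32, beside -9.39 to -7.37 for Cybb. The FDC mean was 5.17% of the BMDC mean. The second probe set of Rac2 was dim, with 145.1 and 68.3 in BMDC and 57.5 and 2.9 in FDC, and its difference of -1.71 ± 0.79 was not called (adjusted p = 0.275). With the brighter probe set the order of levels was BMDC, FDC, then FL-Y with its activated form. With the second, FDC array 2 (2.9) lay below FL-Y (4.9) and activated FL-Y (6.1), all under the 20th percentile.

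Myeloid and granulocyte markers had lower summed signals in FDC than in BMDC, and Rac2 was lower too. Mast cell markers and T and NK cell markers had higher summed signals in FDC. The 13 myeloid markers had FDC means from 0.380% to 14.2% of their BMDC means, with a median of 1.24%, and their summed signal was 309980 and 235960 in BMDC, 8045 and 5750 in FDC and 804 in FL-Y. From the least to the most signal kept, the FDC mean was 0.380% of the BMDC mean for Itgax, 0.469% for Tyrobp, 0.568% for Itgam, 0.608% for Csf1r, 0.622% for Fcer1g and 1.22% for Cd68. It was 1.24% for Itgb2, 1.32% for Spi1, 1.42% for Adgre1, 2.17% for Lyz2, 4.63% for Laptm5, 5.79% for Ptprc, the leukocyte common antigen, and 14.2% for Cd53, a tetraspanin of leukocytes. The 5.17% of Rac2 thus lay between Laptm5 and Ptprc, and the call of Cd53 was lost without BMDC array 1 (adjusted p = 0.0641) or BMDC array 2 (0.0566). Of 8 mast cell markers 4 were called higher in FDC and 0 lower, beside 5.86% and 5.41% of all genes. The 8 had a summed signal of 5851 and 1147 in BMDC, 7734 and 14114 in FDC and 322 in FL-Y. Over the alternative settings the limma adjusted p of Cma1, 1 of the 4, reached 0.0530, past the threshold. T and NK cell markers summed to 377 and 178 in BMDC and to 2217 and 1283 in FDC. Of 7 tested 3 were called higher in FDC and 0 lower, beside 5.86% and 5.41% of all genes. All 3 of these calls were lost without BMDC array 2 (adjusted p = 0.0622 for Cd3d, 0.0868 for Cd3g and 0.0593 for Cd8b1), and without FDC array 1 those of Cd3d (0.0771) and Cd3g (0.0858) were lost and Cd8b1 fell under the filter. Cd8b1 fell under the filter without FDC array 2 as well. Granulocyte markers summed to 100790 and 170180 in BMDC and to 1636 and 985 in FDC. No marker of the myeloid, mast or T and NK cell lists was under the 20th percentile on an FDC array, while 1 of 9 granulocyte markers was under it on FDC array 1 and 3 on FDC array 2. The part of leukocytes in the FDC signal of Rac2, Ncf1 and Ncf4 was not tested.

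Profiles most like that of each gene were sought among 16413 named genes by the root mean square difference of log2 values, each centred on its mean over the 6 arrays in 4 groups. For Rac2 they were Pycard, an adaptor of the inflammasome (0.37; r = 0.996), Ptprc (0.42; r = 0.995), Cytip (0.47; r = 0.993), Csf2rb, a chain of the receptors for GM-CSF and interleukins (0.49; r = 0.992), and Coro1a, an actin-binding protein of leukocytes (0.53; r = 0.991). Pycard, for example, had signals of 780.8 and 803.7 in FDC and 29.0 in FL-Y. For Ncf4 they were the Fc receptor Fcgr3 (0.15), the signalling adaptor Tyrobp (0.38), the invariant chain Cd74 (0.38), the class II chain H2-Aa (0.49) and the coagulation factor F7 (0.59). For Ncf1 they were Nfe2 (0.17), Cyth4 (0.29), Clec4b1 (0.32), Adgre1 (0.32) and Tbxas1 (0.33), and for Cybb the coagulation factor F10 (0.45), properdin Cfp (0.54), the scavenger receptor Cd36 (0.55), Dcstamp (0.59) and Acod1 (0.59). These correlations are over 6 arrays of which 2 and 2 share a cell type, and serve as descriptions.

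The small membrane subunit Cyba, partner of both catalytic subunits, was abundant on every array. Its only probe set gave 44819 and 35325 in BMDC, 13067 and 9809 in FDC, 13204 in FL-Y and 12101 in activated FL-Y. The BMDC arrays were above the other 4, which lay close together. The difference between FDC and BMDC was -1.81 ± 0.40 (SE), with a 95% interval from -2.82 to -0.80 and an unadjusted p of 0.00526, but it was not called (limma adjusted p = 0.0553). It passed the threshold with a variance trend in limma (adjusted p = 0.00543) and with a larger offset (adjusted p = 0.0259). Between FL-Y and FDC the difference was 0.22 ± 0.49, with an interval from -1.01 to 1.46. The 5 genes with the nearest profiles were Ptbp3 (0.13), 9430038I01Rik (0.14), Zranb3 (0.15), Hip1 (0.15) and Zfp853 (0.15), none of them an oxidase gene of the lists used here.

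Nox4 ran opposite to the phagocyte genes. Its brighter probe set gave 14.3 and 67.0 in BMDC, 874.1 and 381.1 in FDC, 71.1 in FL-Y and 50.0 in activated FL-Y, and the other gave 36.0 and 2.7, then 207.8 and 221.9, then 66.3 and 50.1. With both probe sets the FDC arrays were the highest, and the BMDC arrays reached background level, the first with 1 array near the 20th percentile and the second with 1 array under it. Nox4 was higher in FDC by 3.62 ± 0.69 (SE; adjusted p = 0.0368) with the brighter and by 2.97 ± 0.60 (adjusted p = 0.0441) with the other probe set. Both calls were close to the threshold. They were lost with a floor in place of the offset (adjusted p = 0.0804 with the brighter and 0.136 with the other probe set), without the filter (0.0751 and 0.0895) and with array number as a block (0.0720 and 0.0549). With the brighter probe set the difference was 2.87 (adjusted p = 0.0987) without BMDC array 1 and 3.04 (adjusted p = 0.100) without FDC array 1, and with the other it was 2.19 (adjusted p = 0.106) without BMDC array 2 and fell under the filter without either FDC array. Between arrays of the same number it was 4.96 and 2.28 with the brighter and 2.14 and 3.80 with the other probe set. Fibroblast markers moved with Nox4 between BMDC and FDC, with a summed signal of 3581 and 1914 in BMDC and 258240 and 143830 in FDC, yet 156810 in FL-Y, where Nox4 was at 71.1. Their part in the Nox4 difference was not tested. Genes nearest to Nox4 in profile were Nova1 (0.29), Rtn2 (0.31), Serpina3i (0.33), Fap, a protease of activated fibroblasts (0.34), and Reck, an inhibitor of matrix metalloproteinases (0.36).

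FL-Y, which has no replicate, was set against BMDC in a fit of the 4 groups in which the lone array is assumed to vary like the pairs. Cybb (-8.63 ± 0.49, adjusted p = 0.00405), Ncf1 (-6.66 ± 0.66, adjusted p = 0.00854), Ncf4 (-10.21 ± 0.75, adjusted p = 0.00448) and Rac2 (-9.27 ± 0.45, adjusted p = 0.00405) were lower in FL-Y. These are 4 of the 6 genes, against 5.82% of all genes called lower and 9.21% called in either direction. By probe set they are 8 of 12, against 4.69% lower and 7.36% in either direction. Cyba (-1.59 ± 0.49, adjusted p = 0.125) and Nox4 (0.83 ± 0.84, adjusted p = 0.605) were not called, and 3.38% of all genes were called higher. The sizes for Ncf4 and Rac2 depend on the offset, since FL-Y was under the 20th percentile for both. The median over all probe sets tested was -0.13 with the deposited scaling and 0.23 after every array was rescaled to one median. Calls higher made up 36.3% of the calls with the first scaling and 48.8% with the second.

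Between FL-Y and FDC the same fit called 1 of 26999 probe sets (0.0037%) and 0 of the 12 (4 at an unadjusted p under 0.05; 1 with a variance trend). The difference with the lowest p was that of Rac2, at -5.02 ± 0.45 (unadjusted p = 6.71e-05, adjusted p = 0.0841), followed by Ncf4 at -3.05 ± 0.75 (adjusted p = 0.179) and Nox4 at -2.80 ± 0.84 (adjusted p = 0.221). These comparisons share arrays and are not independent.

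**Figure D2:**
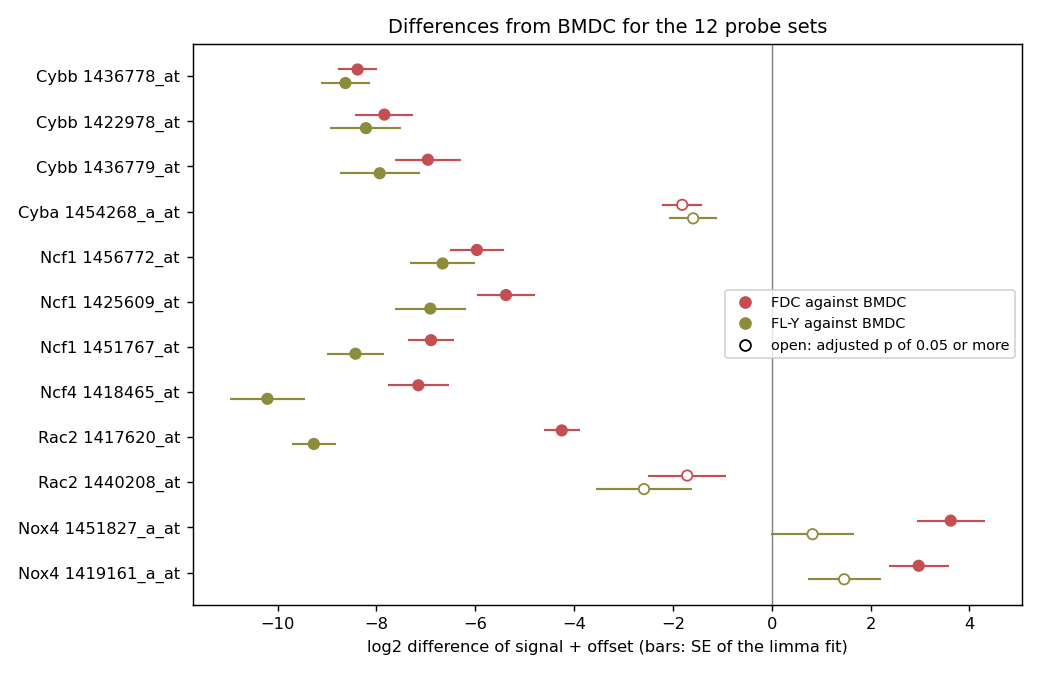
Log2 differences of signal + 14.2 from BMDC for the 12 probe sets, in FDC (red, 2 arrays against 2) and in FL-Y (olive, 1 array against 2); bars give the SE of the limma fit, filled points have an adjusted p under 0.05. Rac2 shows the widest gap between FDC (-4.25) and FL-Y (-9.27), Cyba lies at -1.81 and -1.59, and both Nox4 probe sets lie above 0.

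Activation of FL-Y was measured with 1 array in each state, so its differences were described without a test. Of the 12 probe sets 1 was at least 1 higher on the log2 scale and 0 lower, and their differences ran from -0.83 to 1.03, while over all probe sets tested 3.51% were at least 1 higher and 5.96% at least 1 lower. By gene, Ncf4 was 1 of 6 past that limit, against 2.71% of all genes higher and 5.85% lower. The probe set past that limit was that of Ncf4 (1.03), with signals of 2.0 and 18.8 at background level. Cyba differed by -0.13, and Nox4 by -0.41 and -0.32.

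Other components and relatives of the oxidase were read as a list. Of 18 genes listed 13 were measured and 11 tested, of which 1 was lower and 1 higher in FDC, beside 5.41% and 5.86% of all genes (2 and 3 at an unadjusted p under 0.05; 1 and 2 with a variance trend), with a median of -0.46. The proton channel Hvcn1, which balances the charge that the oxidase moves, gave 8933 and 4155 in BMDC, 198.3 and 240.0 in FDC and 5.1 in FL-Y, a difference of -4.72 ± 0.50 (adjusted p = 0.00729). Sh3pxd2a, a scaffold related to the organiser subunits, was higher in FDC by 2.97 ± 0.45 (adjusted p = 0.0193) and in FL-Y by 3.19 (adjusted p = 0.0334). The FDC call was lost without BMDC array 2 (0.0769) or FDC array 2 (0.0577), and the FL-Y call without BMDC array 1 (0.0523) or BMDC array 2 (0.0934). Cybc1, a chaperone of the Cybb product, gave 2022 and 2187 in BMDC, 1388 and 1618 in FDC and 684 in FL-Y, and its difference of -0.49 ± 0.37 was not called (adjusted p = 0.509). Duoxa1, a maturation factor of the dual oxidases, gave 3.4 and 36.2 in BMDC against 943.5 and 110.1 in FDC, which are unequal, and was not called (3.53 ± 1.08, adjusted p = 0.123). Poldip2, a partner of Nox4, had a difference of 0.75 ± 0.38 (adjusted p = 0.324). Rac1, the Rac of most tissues, gave 20716 and 24318 in BMDC, 13764 and 15479 in FDC and 18943 in FL-Y, and its difference of -0.62 ± 0.37 was not called (adjusted p = 0.399). Rac3 had a difference of 1.83 ± 0.41 (adjusted p = 0.0563).

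Of 21 tested genes whose products take part in switching the oxidase on, 11 were lower in FDC and 0 higher with limma, beside 5.41% and 5.86% of all genes (13 and 1 at an unadjusted p under 0.05; 12 and 0 with a variance trend), and their median was -2.70; Fcer1g and Tyrobp are also among the myeloid markers. The 11 were Tyrobp (-7.74) and Fcer1g (-7.20), adaptors of activating receptors, the lipid kinase Pik3cg (-5.56), the kinase Prkcb, which phosphorylates the organiser subunit (-5.46), the Rac exchange factor Dock2 (-5.26) and the kinase Syk (-4.93), and the smaller differences of Pik3r5, Prex1, Vav3, Prkcd and Elmo1. Dock2, for example, gave 3682 and 4307 in BMDC, 101.1 and 79.5 in FDC and 49.7 in FL-Y. Prkcd (-2.84, adjusted p = 0.0285) lost its call without BMDC array 1, BMDC array 2 or FDC array 1 (0.106, 0.0786 and 0.0720), Elmo1 (-2.70) without either BMDC array (0.0618 and 0.0743), Vav3 (-3.70) without FDC array 1 (0.0533) and Prex1 (-3.92) without BMDC array 2 (0.0557). The remaining 10 were not called and lay on both sides of 0, among them Vav1 (-1.67), Prkca (0.23), Pld1 (0.82), Pik3cd (0.84) and the phospholipase Pla2g4a (2.35). In FL-Y 11 of the 21 were lower than in BMDC and 0 higher, beside 5.82% and 3.38% of all genes (13 and 0 at an unadjusted p under 0.05; 11 and 0 with a variance trend). Of these calls, Prkcd lost its own without either BMDC array (adjusted p = 0.127 and 0.0962), Vav3 without BMDC array 1 or either FDC array (0.102, 0.0542 and 0.0565) and Prex1 without BMDC array 2 (0.0555).

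**Figure D3:**
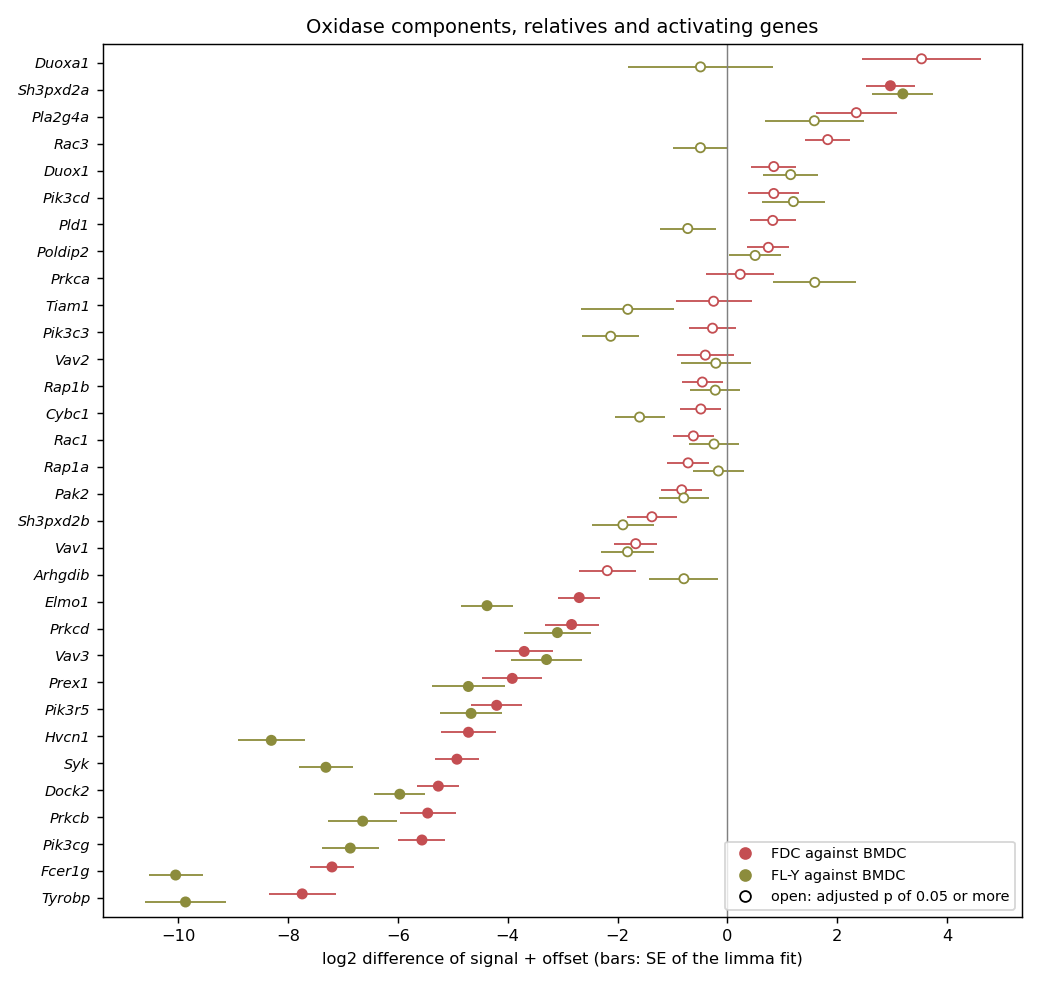
Log2 differences of signal + 14.2 from BMDC for the tested genes of the lists of oxidase components and of activating genes, in FDC (red) and FL-Y (olive); bars give the SE of the limma fit, filled points have an adjusted p under 0.05. The called genes other than Sh3pxd2a lie below 0, from Elmo1 (-2.70) to Tyrobp (-7.74) in FDC, and Cybc1 lies at -0.49 in FDC and -1.60 in FL-Y, an open point in both.

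Among enzymes that handle superoxide and peroxide, the called genes were higher in FDC. Of 20 tested 4 were higher and 0 lower, beside 5.86% and 5.41% of all genes (4 and 1 at an unadjusted p under 0.05; 4 and 0 with a variance trend), and their median was 0.14. Gpx8, a peroxidase of the endoplasmic reticulum, gave 75.9 and 3.6 in BMDC, 14392 and 12230 in FDC and 7466 in FL-Y, a difference of 8.37 ± 0.81 (adjusted p = 0.00556). Gpx7, its relative, gave 108.4 and 90.0 in BMDC, 5178 and 6839 in FDC and 4639 in FL-Y, a difference of 5.72 ± 0.39 (adjusted p = 0.00304). Both were also higher in FL-Y than in BMDC, by 7.55 ± 0.99 (adjusted p = 0.0162) for Gpx8 (0.0672 with a floor in place of the offset) and 5.36 ± 0.48 (adjusted p = 0.00648) for Gpx7. The secreted superoxide dismutase Sod3 gave 43.2 and 10.0 in BMDC and 17304 and 2096 in FDC, with 89.9 in FL-Y, and the secreted peroxidase Gpx3 gave 681.2 and 204.1, then 19300 and 6847, with 166.7 in FL-Y. The FDC arrays were unequal for both and FL-Y lay near BMDC. On BMDC array 2 Gpx8 and Sod3 were under the 20th percentile of 15.4, so the sizes of their differences from BMDC depend on the offset. Gpx8 in FDC lay at 9.54 without BMDC array 1 and at 7.20 without BMDC array 2. Sod3 was higher in FDC by 7.34 ± 1.07 (adjusted p = 0.0172; 0.0533 without BMDC array 2) and Gpx3 by 4.88 ± 0.78 (adjusted p = 0.0219; 0.0566 without BMDC array 2 and 0.0570 without FDC array 1). The cytosolic dismutase Sod1 (-0.19 ± 0.49, adjusted p = 0.861) and catalase, Cat (-1.30 ± 0.72, adjusted p = 0.361), were not called.

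**Figure D4:**
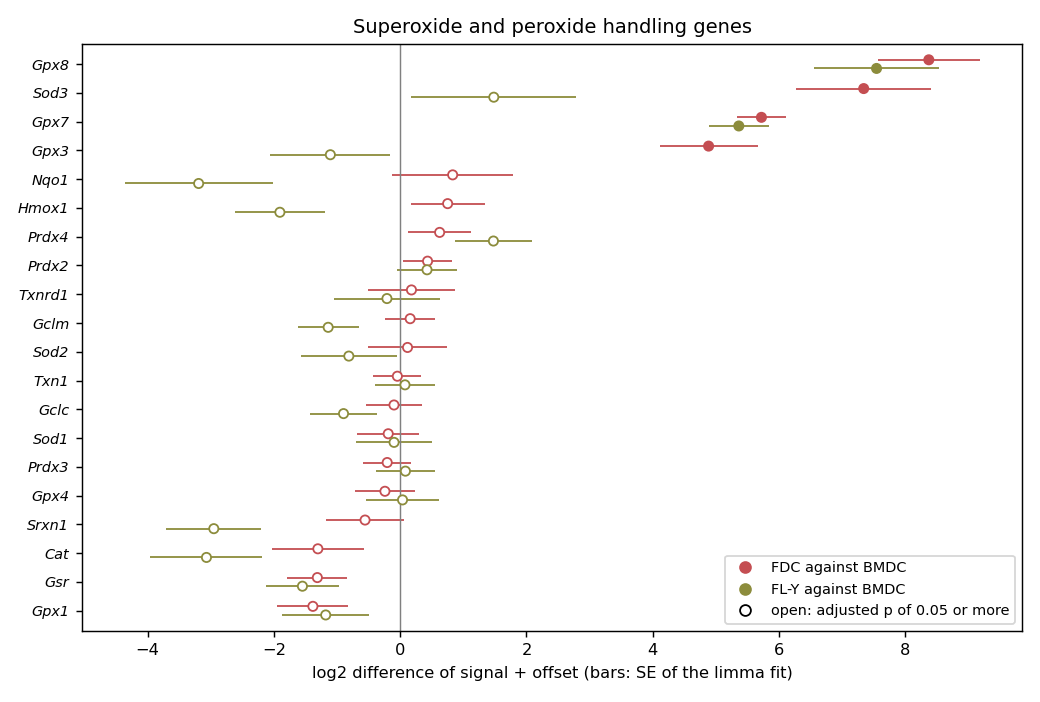
Log2 differences of signal + 14.2 from BMDC for 20 genes of superoxide and peroxide handling, in FDC (red) and FL-Y (olive); bars give the SE of the limma fit, filled points have an adjusted p under 0.05. Gpx8 and Gpx7 stand to the right in both, Sod3 (7.34) and Gpx3 (4.88) in FDC, and the other genes are open points.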

How the data were processed

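The deposited values are linear intensities, 1 for each probe set on each array. The mean of each array trimmed by 2% at each end was 500, so arrays had been scaled before deposit. How probes were summarised: not given in the sources used here. Genes came from the platform annotation (34945 probe sets with 1 gene, 932 with several, 9160 unnamed); the gene identifier of 34741 of the first matched RefSeq (GRCm38.p6, names and promoters only). A gene was read by its brightest probe set over the 6 arrays. An offset of 14.2 (the arrays' median 20th percentile) was added before log2. Probe sets above the 40th percentile of the BMDC and FDC mean (a signal of 46.5) were tested with limma 3.58.1 in R 4.3.3 (2 residual and 3.35 prior degrees of freedom), two-sided. With 2 arrays a group, exact permutation gives no p under 0.333, so none was run. The test was checked on simulated data. Members, lists, tests and alternatives were chosen with earlier results of these data known. Named genes are the members, called genes of the lists (the 6 largest where over 6 were called) and the 5 nearest profiles of each member; Cybc1, Duoxa1, Poldip2, Rac1, Rac3, Irf1, Vav1, Prkca, Pld1, Pik3cd, Pla2g4a, Cd3d, Cd3g, Cd8b1, Sod1, Cat and the smaller called differences were named after their values were seen. Alternatives were another offset or floor, quantile normalization, one median, no filter, a variance trend, a block for array number, each array left out, and the median probe set. The number of arrays limits the precision. Results of 1 gene list are not reported here.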

Additional observations from a re-analysis of the deposited data

How the results depend on the processing

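Between FDC and BMDC, Cybb, Ncf1, Ncf4 and Rac2 kept their direction and call under all 11 alternatives, with adjusted p from 0.000266 to 0.0211 with limma, and Nox4 kept its direction. The 1306 probe sets higher and 1107 lower became 787 and 659 with a floor in place of the offset, 795 and 638 without the filter, and 780 to 1041 and 538 to 1048 with 1 array left out. With those 2 settings and with the replicate block the count of members higher was 0 in place of 1, and it was 0 to 1 with 1 array left out. Nox4 was at 4.22 (adjusted p = 0.0804) with the floor, 3.62 (0.0751) without the filter, 3.62 (0.0720) with the replicate block and 2.87 to 4.38 with 1 array left out. The array numbers are shared by label only (the differences between array 1 and array 2 of BMDC and of FDC correlate at r = 0.200 across probe sets), and the block gave 1327 and 1068 probe sets. Cyba was called at -1.81 with the larger offset (0.0259) and at -1.81 with a trend (0.00543). The median over probe sets was -7.84 for Cybb and -2.98 for Rac2.

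Between FL-Y and BMDC, 721 higher and 1267 lower became 314 and 546 without the filter, 1101 higher with a trend, and 419 to 775 and 665 to 1519 with 1 array left out. Cyba was called at -1.59 with a trend (0.0221), and the median over probe sets was -8.21 for Cybb and -5.93 for Rac2. Between FL-Y and FDC, 0 higher and 1 lower became 6 and 72 with the larger offset and 25 and 162 with a trend, and the lower count was 0 with the floor, 2 with one median, 0 without the filter and 0 to 3 with 1 array left out. Members lower were 1 with the larger offset and 1 with a trend, in each case Rac2, at -3.69 (0.0396) and -5.02 (0.0158). The median over probe sets was -2.95 for Rac2 and -1.53 for Ncf1. Cybb changed sign to 0.056 (0.972) under quantile normalization and 0.045 (0.970) with one median.

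For activation, Cybb was at -0.11 under quantile normalization, Cyba at 0.23 with one median and Ncf4 at 2.60 with the floor. Rac2 was at -0.57 with the floor, -0.070 with the larger offset, -0.026 under quantile normalization and -0.088 with one median. The cause of these changes was not tested. Signals near the 20th percentile limit Cybb, Ncf4, Rac2 and Nox4 where they are dim.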
